A study of Drosophila melanogaster with 14 samples.

Results

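The glia of the fly embryo were followed through 7 genes taken by name, with earlier results of these data known. Of these, *gcm*, *gcm2* and *repo* set glial fate, *loco* and *moody* act in the blood-brain barrier, *Eaat1* is a transporter and *wrapper* an adhesion protein. They are 7 of the 17493 genes in the count table, and all 7 had enough reads to be tested in both experiments. RNA with a poly(A) tail from whole *Drosophila melanogaster* embryos, 10 to 15 h old, was sequenced in 14 samples. The question was how the transcriptome differs when embryos lack the exon that is particular to Sgg-PA or the exon that is particular to Sgg-PB, the 2 main forms of the kinase Shaggy (GSK-3), which acts in Wnt signalling and many other pathways.

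The 3 sggisoA null samples came from homozygous null mothers and hemizygous null fathers, so that neither the mother nor the embryo supplied Sgg-PA. Their 3 control samples came from the progenitor stock (attP40, with THattP40 in the sample titles, after the THattP40 line with nos-Cas9 that was injected), and no sorting by sex is described for either group. The 4 sggisoB zygotic null samples were embryos without fluorescence from mothers that carried the null over a GFP-marked FM7 balancer, mated to FM7 GFP males. These mothers still supply Sgg-PB to the egg. The study describes these null embryos as hemizygous males. The labels and methods give the 4 control samples of this experiment as embryos picked in the same way from a parallel cross, with progenitor/FM7 GFP mothers, and name these samples attP40 too. In both crosses FM7 GFP fathers pass the balancer to every daughter, so the control embryos without fluorescence are expected to be males too. Each null is a single engineered deletion that also leaves a LoxP site. Maternal supply, balancer, picking and the sorting of sex by the picking differ between the experiments and cannot be told apart when they are set side by side. In whole embryos, fewer glia and less RNA per glial cell cannot be told apart either.

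In the embryonic nervous system of the fly, Gcm is a transcription factor that turns neural precursors to the glial fate, and Gcm2 is its close relative with partly shared function. Gcm switches on *repo*, which encodes a homeodomain protein found in nearly all glia except those of the midline, and *loco* is another of its known targets. Gcm and Gcm2 also act in hemocytes, the blood cells of the embryo. Late in embryogenesis the surface glia seal the nerve cord against the hemolymph, for which the G protein-coupled receptor Moody and the regulator of G protein signalling Loco are needed. Eaat1 takes up glutamate into glia. Wrapper is an immunoglobulin-family protein of the midline glia that enwrap the commissural axons.

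The samples held between 8082962 and 25124367 reads counted on genes. The 3 sggisoA controls were the shallowest group (8082962 to 12800846) and the sggisoA nulls were deeper than all of them (15841397 to 18311205), whereas the sggisoB nulls (14378062 to 25124367) and controls (11189291 to 23798611) overlapped. The count of the whole *sgg* gene did not separate the groups, with a log2 fold change of 0.26 (SE 0.16, adjusted p = 0.403) in sggisoA and of -0.26 (SE 0.10, adjusted p = 0.113) in sggisoB in edgeR's quasi-likelihood test with Benjamini-Hochberg adjustment. That test gives every adjusted p below. Levels are CPM, that is counts relative to library size, with TMM factors computed within each experiment. Calls required an adjusted p no greater than 0.05 together with a change of 0.7 or more, up or down, on the log2 scale. The study calls the sggisoA replicates biological, but neither labels nor methods say that samples came from separate parents or collections, so the p-values measure the spread between these samples. SggisoA control replicate 3 stood apart from the other controls in several of the glial genes, and results that rest on it are given with and without it.

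Of the 7 genes, *Eaat1* alone was called: it fell in sggisoB zygotic null embryos to 59.9% of the control level. No member was called in sggisoA null embryos, where *gcm* was lower and *loco* higher in every null sample than in every control sample without passing the adjusted test. The other members, *gcm2*, *repo*, *moody* and *wrapper*, had overlapping samples in both experiments. The levels of all 7 genes in the 14 samples are plotted on a scale common to both experiments.

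**Figure D1:**
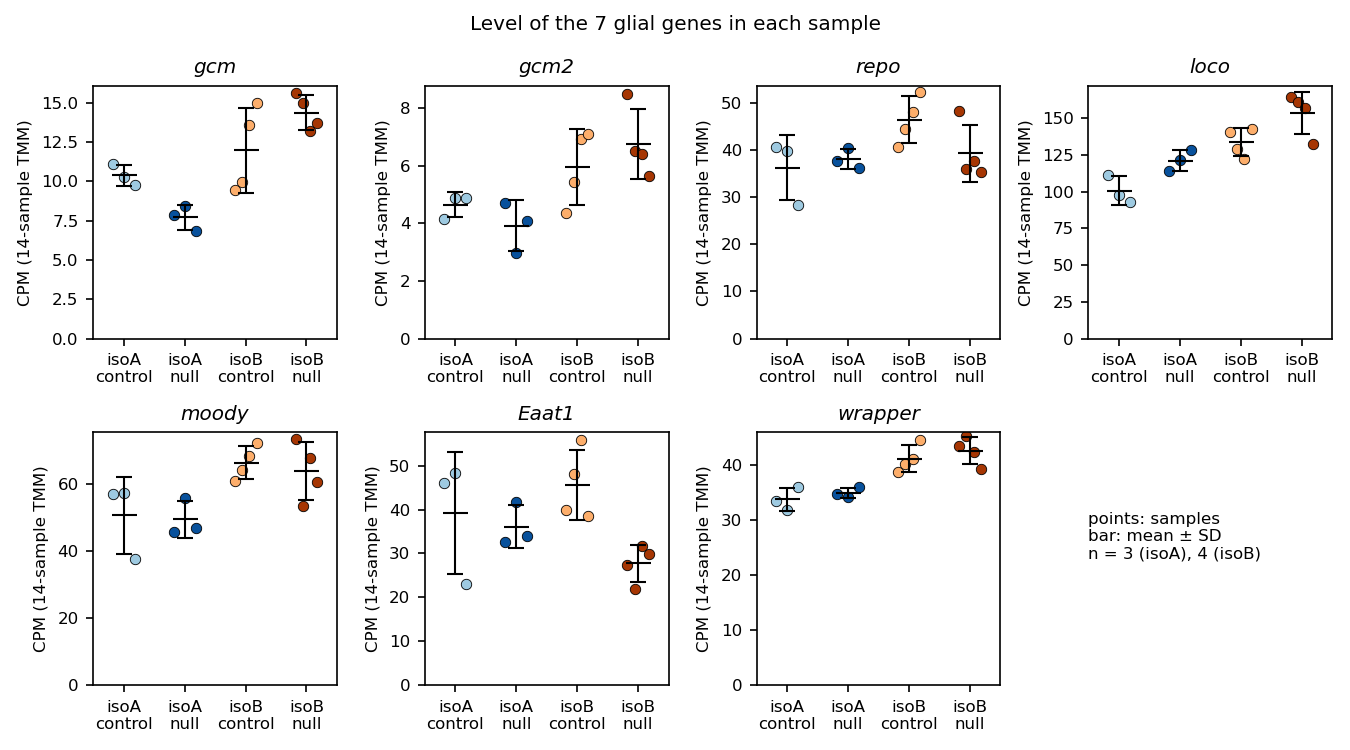
Level of each glial gene (CPM, with 1 TMM scaling over the 14 samples, axes from 0) in the control and null samples of the sggisoA (n = 3 and 3) and sggisoB (n = 4 and 4) experiments. Points are samples, bars the mean ± SD. *Eaat1* in the sggisoB nulls, at 21.9 to 31.8 CPM, lies below the sggisoB controls, and sggisoA control replicate 3 is the lowest sample of its group for *repo*, *moody* and *Eaat1*.

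*gcm* (FBgn0014179) is a short gene on chromosome 2L, from 9579498 to 9581745 on the minus strand of the Release 6 assembly, and 5.89% of its exon bases are shared with *CG31709*, where the counting could drop reads. Its reads numbered 84 to 371 per sample. It stood at 7.98, 8.45 and 7.02 CPM in the 3 sggisoA nulls and at 11.1, 10.6 and 9.84 CPM in their controls. All 3 nulls lay below all 3 controls. The log2 fold change was -0.43 (SE 0.18), or 74.4% of the control level, with an unadjusted p of 0.0437 and an adjusted p of 0.255 from edgeR's quasi-likelihood test. By exact permutation of the samples (two-sided, on log2 CPM) p was 0.1, the smallest that 3 samples against 3 allow. Without any single sample the log2 fold change stayed between -0.48 and -0.35, with an adjusted p between 0.225 and 0.616.

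In the sggisoB experiment *gcm* stood at 15.2, 15.0, 13.1 and 13.4 CPM in the nulls and at 9.34, 10.0, 13.5 and 15.0 CPM in the controls. The controls fell into a lower and a higher pair, and the higher pair overlapped with the nulls. The log2 fold change of 0.24 (SE 0.16, adjusted p = 0.34) had the opposite sign to that in sggisoA. The effect in sggisoB minus the effect in sggisoA, tested as an interaction in a fit of the 14 samples, was 0.69 on the log2 scale (SE 0.23) with an unadjusted p of 0.0102 and an adjusted p of 0.114. This was the smallest interaction p among the 7 genes, and it did not pass.

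*gcm2* (FBgn0019809) lies on the plus strand of 2L from 9608562 to 9612706, separated from *gcm* by 26816 bases, and was the weakest of the 7 genes with 40 to 162 reads per sample. The sggisoA nulls had 4.78, 2.99 and 4.19 CPM and the controls 4.14, 5.05 and 4.92 CPM. The sggisoB nulls had 8.25, 6.49, 6.33 and 5.52 CPM and the controls 4.32, 5.46, 6.93 and 7.10 CPM. Null and control samples overlapped in both experiments. The log2 fold changes of -0.24 (SE 0.26, adjusted p = 0.651) in sggisoA and 0.15 (SE 0.19, adjusted p = 0.625) in sggisoB were smaller than their errors. Per base of exon, *gcm* was 2.42 ± 0.393 times as abundant as *gcm2* in the sggisoA controls (SD, n = 3) and 2.20 ± 0.712 times in the nulls. In the sggisoB experiment the same ratio was 2.16 ± 0.159 in the controls and 2.31 ± 0.279 in the nulls (SD, n = 4). The ranges of this ratio overlapped between null and control samples in both experiments.

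*repo* (FBgn0011701, 3R, 18236192 to 18239602, plus strand) shares 6.11% of its exon bases with *CG7156* on the opposite strand, and the counting ignored strand. In sggisoA its levels were 38.2, 40.7 and 37.2 CPM in the nulls and 40.6, 41.1 and 28.6 CPM in the controls. The first 5 of these values lay close together and control replicate 3 lay well below them. Its log2 fold change was 0.07 (SE 0.16, adjusted p = 0.826), and it ranged from -0.08 to 0.16 when single samples were left out. In sggisoB *repo* stood at 46.9, 36.0, 37.2 and 34.5 CPM in the nulls and at 40.3, 44.8, 48.0 and 52.3 CPM in the controls. Null replicates 2, 3 and 4 were below every control, whereas null replicate 1 was above 2 of them. This gave a log2 fold change of -0.27 (SE 0.12), with an unadjusted p of 0.0493 that rose to 0.161 after adjustment, and by two-sided exact permutation p was 0.0857, where 4 samples against 4 can reach 0.0286.

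*loco* (FBgn0020278, 3R, 22619968 to 22639387, minus strand) was the most read of the 7 genes, with 799 to 3982 reads per sample, and 13.5% of its exon bases are shared with *asRNA:CR43474* on the opposite strand. It stood at 115.7, 121.8 and 131.3 CPM in the sggisoA nulls and at 111.5, 100.9 and 93.4 CPM in the controls. All nulls were above all controls, although the nearest pair of samples differed by less than the spread within either group. The log2 fold change of 0.27 (SE 0.12) gave an unadjusted p of 0.0478 and an adjusted p of 0.262, and the exact permutation p was again 0.1. In sggisoB the nulls had 159.6, 160.6, 155.1 and 129.2 CPM and the controls 139.1, 130.3, 122.1 and 142.7 CPM. Null replicate 4 lay among the controls, and the other 3 nulls lay above them. The log2 fold change was 0.18 (SE 0.09, adjusted p = 0.21), so that *loco* was above its control in both experiments without passing in either, and the interaction was -0.07 (SE 0.14, adjusted p = 0.796).

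*moody* (FBgn0025631, X, 2044292 to 2050120, minus strand) is the only X-linked gene of the 7. Its levels were 46.3, 55.7 and 47.9 CPM in the sggisoA nulls and 56.9, 59.0 and 37.6 CPM in the controls. Control replicate 3 was again the lowest of the 6 samples and the other controls were the highest. The log2 fold change was -0.03 (SE 0.18, adjusted p = 0.938) and became -0.21 (adjusted p = 0.404) at the lowest and 0.08 at the highest when single samples were left out. In sggisoB the nulls stood at 71.3, 53.4, 66.8 and 59.1 CPM and the controls at 60.3, 64.4, 68.0 and 71.8 CPM. The groups covered almost the same range, with a log2 fold change of -0.08 (SE 0.10, adjusted p = 0.626).

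*Eaat1* (FBgn0026439, 2L, 9333567 to 9341925, plus strand) has 3139 exon bases, none of them shared with another gene. In the sggisoB nulls it stood at 26.6, 21.9, 31.4 and 29.1 CPM and in the controls at 39.5, 48.4, 55.8 and 38.5 CPM, from 384 to 1272 reads per sample. Every null sample was below every control sample. The means were 27.3 ± 4.08 and 45.5 ± 8.14 CPM (SD, n = 4), and the log2 fold change was -0.74 (SE 0.15, unadjusted p = 0.000605, adjusted p = 0.0168 in edgeR's quasi-likelihood test). Exact permutation of the samples (two-sided) gave p = 0.0286, the smallest possible with 4 samples against 4.

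The call for *Eaat1* lies near the thresholds. It held with DESeq2 (log2 fold change -0.71, adjusted p = 0.000346) and with limma-voom (-0.73, adjusted p = 0.0194). It was lost without null replicate 2, where the log2 fold change was -0.62 (adjusted p = 0.0353), without control replicate 2 (-0.71, adjusted p = 0.0559) and without control replicate 3 (-0.63, adjusted p = 0.0524). The sign was negative with every sample left out in turn, between -0.81 and -0.62.

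In the sggisoA experiment *Eaat1* had 33.1, 41.8 and 34.7 CPM in the nulls and 46.1, 49.8 and 23.2 CPM in the controls. Control replicates 1 and 2 were the highest samples and control replicate 3 was the lowest, so that the controls enclosed the nulls. With all samples the log2 fold change was -0.12 (SE 0.26, adjusted p = 0.832). Without control replicate 3 it was -0.39 (adjusted p = 0.201), and without control replicate 2 it was 0.08 (adjusted p = 0.906). The effect in sggisoB minus that in sggisoA was -0.60 (SE 0.31, unadjusted p = 0.0743, adjusted p = 0.293), and -0.34 (adjusted p = 0.492) without sggisoA control replicate 3. The fall of *Eaat1* in sggisoB is thus not shown to differ from its change in sggisoA.

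*wrapper* (FBgn0025878, 2R, 22379637 to 22382675, plus strand) was the steadiest of the 7 genes. It stood at 35.2, 34.2 and 36.8 CPM in the sggisoA nulls and at 33.3, 32.8 and 36.2 CPM in the controls. In sggisoB it stood at 42.1, 45.1, 41.9 and 38.4 CPM in the nulls and at 38.3, 40.3, 41.0 and 44.4 CPM in the controls. Null and control samples overlapped throughout in both experiments. The log2 fold changes were 0.05 (SE 0.12, adjusted p = 0.832) and 0.03 (SE 0.08, adjusted p = 0.832), and the interaction was 0.00 (SE 0.12, adjusted p = 0.997).

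**Figure D2:**
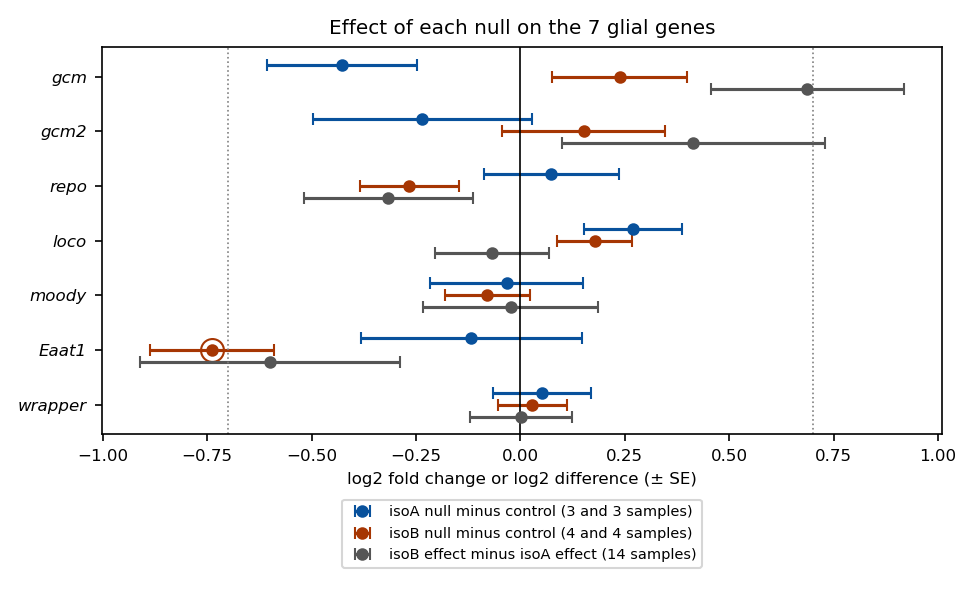
Log2 fold change of each glial gene, null over control, in sggisoA (blue) and sggisoB (red), and the log2 difference between these effects (grey), with bars of 1 SE. Dotted lines mark the threshold of 0.7 in either direction, and the ring marks the only call, *Eaat1* in sggisoB at -0.74.

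Counts for the members are given beside the share over all genes tested, since 7 genes are too few for a share of their own. In sggisoA 0 of the 7 were called, where 0.971% of the 10397 genes tested were (101 genes), and DESeq2 and limma-voom also called 0 of them. By edgeR 2 of the 7 had an unadjusted p under 0.05, beside 1966 of all 10397 genes. The samples did not overlap for 2 of the 7, *gcm* and *loco*, against 24.8% of all genes tested. In sggisoB 1 of the 7 was called, against 4.56% of the 10693 genes tested (488 genes), and the samples did not overlap for 1 of the 7, against 20.3% of all. By edgeR 2 of the 7 had an unadjusted p under 0.05 there, beside 3299 of all 10693 genes. In the interaction 0 of the 7 passed, by edgeR, DESeq2 or limma-voom, where 2.54% of 11021 genes passed by edgeR. Its unadjusted p by edgeR was under 0.05 for 1 of the 7, beside 2304 of all 11021 genes. The median log2 fold change of the 7 genes was -0.03 in sggisoA and 0.03 in sggisoB, beside -0.01 and -0.01 over all genes tested.

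Between the control groups of the 2 experiments, all 7 glial genes had higher means in the sggisoB controls than in the sggisoA controls, and *loco* (log2 difference 0.41, SE 0.10, adjusted p = 0.0099) and *wrapper* (0.28, SE 0.09, adjusted p = 0.0288) passed the adjusted p, as 12.6% of all genes tested did in this direction. *wrapper* no longer passed without sggisoB control replicate 3 (0.29, adjusted p = 0.0598) or replicate 4 (0.22, adjusted p = 0.116), and *loco* passed without each sample in turn (adjusted p at most 0.0421). None reached the fold of 0.7, so 0 of the 7 were called by edgeR, DESeq2 or limma-voom, where edgeR called 9.35% of all genes. The unadjusted p by edgeR was under 0.05 for 4 of the 7, beside 4511 of all 11021 genes. The samples did not overlap for 4 of the 7, *repo*, *loco*, *moody* and *wrapper*, against 34.6% of all genes tested. The median difference was 0.36 for the members and -0.01 over all genes. *repo* (0.36, adjusted p = 0.0806), *moody* (0.39, adjusted p = 0.0655), *gcm2* (0.37, adjusted p = 0.241), *Eaat1* (0.22, adjusted p = 0.475) and *gcm* (0.21, adjusted p = 0.363) did not pass. Without sggisoA control replicate 3 the difference was -0.02 for *Eaat1*, 0.24 for *repo* (adjusted p = 0.278), 0.25 for *moody* (adjusted p = 0.234) and 0.37 for *wrapper* (adjusted p = 0.0291). Without sggisoA control replicate 1, *repo* (0.48, adjusted p = 0.0486) and *moody* (0.52, adjusted p = 0.0411) passed, and *moody* also passed without replicate 2 (0.54, adjusted p = 0.0352). Without sggisoB control replicate 4 the difference was 0.06 for *gcm* and 0.24 for *gcm2*. These groups differ in cross, balancer, picking and the sorting of sex by the picking together, and their parts in the difference cannot be told apart.

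Over the 4 conditions, on the common scale, *gcm* ran from 14.4 CPM in the sggisoB nulls through 12.0 in the sggisoB controls and 10.4 in the sggisoA controls to 7.71 in the sggisoA nulls, and only the last step had no overlap between neighbouring groups. *loco* ran from 153.6 CPM in the sggisoB nulls through 133.8 in the sggisoB controls and 121.2 in the sggisoA nulls to 100.8 in the sggisoA controls, where again only the last neighbours did not overlap. *Eaat1* had another order, with 45.6 CPM in the sggisoB controls, 39.2 in the sggisoA controls, 36.1 in the sggisoA nulls and 27.7 in the sggisoB nulls, and only the last step was free of overlap. *wrapper* separated by experiment rather than by genotype, with 42.5 and 41.1 CPM in the sggisoB nulls and controls and 34.9 and 33.7 CPM in the sggisoA nulls and controls. For *gcm2*, *repo* and *moody* every pair of neighbouring groups overlapped.

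Per length of exon, *wrapper* was the most abundant of the 7 genes, with a mean RPKM (CPM divided by exon length in kilobases) of 19.5 over the 14 samples. *loco* followed with a mean RPKM of 16.9, *moody* with 14.9, *repo* with 13.5 and *Eaat1* with 11.8. The fate genes *gcm* and *gcm2* were the lowest, with a mean RPKM of 5.25 and 2.35. The highest sample exceeded the lowest by a ratio of 1.42 for *wrapper* and of 2.85 for *gcm2*, with *Eaat1* second at 2.55.

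Within the conditions, some of the genes varied together from sample to sample. The deviations of log2 CPM from the condition mean had a Pearson r of 0.90 for *repo* and *moody* (Spearman rho 0.90, n = 14 samples), and r was 0.84 without the 2 samples farthest from the median. *moody* and *Eaat1* had r = 0.80 (rho 0.71), which dropped to 0.53 without the 2 farthest samples. *repo* and *Eaat1* had r = 0.58 (rho 0.53), and *Eaat1* and *wrapper* had r = -0.63 (rho -0.55). Over the 21 pairs of members r was above 0 in 16 and its median was 0.37. Both genes of a pair share the library and its scaling, and 14 samples in 4 groups leave few independent points, so these values are a description. Each member also had genes with a nearly parallel course over the 14 samples. For *Eaat1* the 3 most alike were *EAChm* (r = 0.988), *obst-J* (0.969) and *CG13059* (0.966). For *repo* they were *Tusp*, *nwk* and *CG13251* (0.942, 0.909 and 0.904). For *moody* they were *CG42260*, *Mgat2* and *p130CAS* (0.928, 0.925 and 0.923). For *loco* they were *Dmtn*, *Sulf1* and *prage* (0.972, 0.970 and 0.969). For *gcm* they were *scrt*, *Akt1* and *tap* (0.938, 0.937 and 0.916), and *tap* came second for *gcm2* (0.874) between *CG31195* (0.895) and *T48* (0.871). For *wrapper* they were *nerfin-1*, *mip120* and *Cad96Cb* (0.949, 0.944 and 0.941).

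The genes most like *Eaat1* also fell in sggisoB. *EAChm* stood at 139.2 ± 21.7 CPM in the nulls and 291.1 ± 56.2 CPM in the controls (SD, n = 4), with a log2 fold change of -1.06. *obst-J*, whose name places it in a family of chitin-binding proteins, went from 32.8 ± 9.50 CPM in the controls to 11.4 ± 2.82 CPM in the nulls (SD, n = 4), a log2 fold change of -1.52. *CG13059* had a log2 fold change of -0.92. They were picked for their likeness over these same samples, so their fall is a description and no separate result.

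*Eaat1* moved together with the cuticle genes of the late epidermis, those whose symbols begin with Cpr and a number. Of the 70 Cpr genes listed, 49 were tested in sggisoB, 17 were called lower and 0 higher, and their median log2 fold change was -0.94. In sggisoA 44 were tested and 0 were called, with a median of -0.29. Their summed level was 1428 to 2769 CPM in the sggisoB nulls and 3084 to 4669 CPM in the controls, groups that did not overlap, as for *Eaat1*. In sggisoA it was 2455 to 2653 CPM in the nulls and 2635 to 4199 CPM in the controls, and the lowest control was replicate 3, the sample with the lowest *Eaat1*. Of the 70 Cpr genes, 3 had no read in any of the 8 sggisoB samples and 2 in none of the 6 sggisoA samples. The deviations of *Eaat1* from the condition means went with those of the Cpr genes at r = 0.87 (rho 0.82, n = 14 samples), and at 0.78 without the 2 farthest samples. For *moody* this r was 0.71, for *repo* 0.55, for *gcm* 0.15, for *loco* -0.12, for *gcm2* -0.10 and for *wrapper* -0.57. Members also went with lists described below, so such movement was not particular to the Cpr genes. *Eaat1* had r = 0.73 with the transport list, of which it is part, 0.67 with the neuron list and -0.64 with the engulfment list. *moody* had 0.77 with the neuron list and *repo* 0.85 with the barrier list. The part of the Cpr genes, or of whatever moves them, in the fall of *Eaat1* was not tested.

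**Figure D3:**
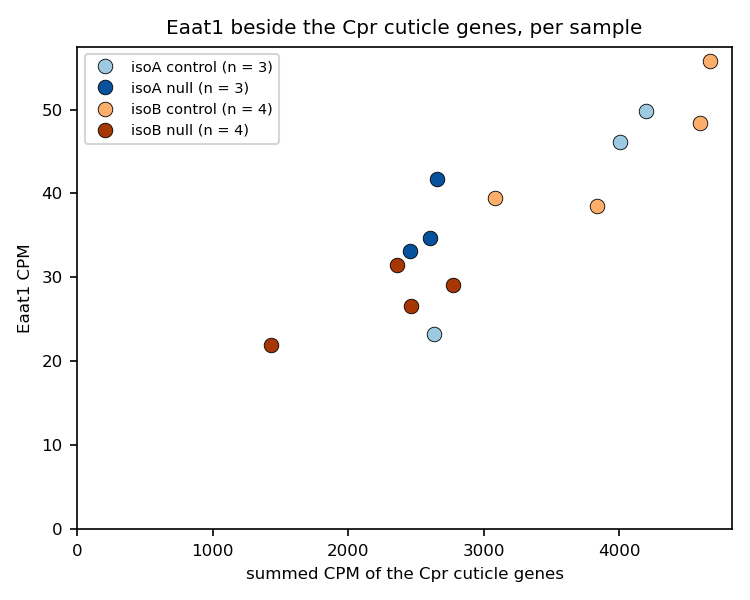
*Eaat1* (CPM) against the summed CPM of the tested Cpr cuticle genes in each of the 14 samples, both scaled within their experiment and both axes from 0. The 4 sggisoB nulls have at most 2769 CPM of Cpr genes and at most 31.4 CPM of *Eaat1*, below the 4 sggisoB controls on both axes. SggisoA control replicate 3, at 2635 and 23.2 CPM, lies beside these nulls. The 3 sggisoA nulls, at 2455 to 2653 CPM of Cpr genes, lie above them with 33.1 to 41.8 CPM of *Eaat1*. The sum covers 44 Cpr genes in sggisoA and 49 in sggisoB.

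To place the 7 genes among other genes of glia, 50 genes in 6 lists were examined, of which the 7 are part. All 50 were tested in both experiments, and 0 of them had a sample without reads. In sggisoA 0 of the 50 were called by edgeR, DESeq2 or limma-voom, where edgeR called 0.971% of all genes tested. Their unadjusted p by edgeR was under 0.05 for 5, beside 1966 of all 10397 genes. Of the 50, 26 were above and 24 below 0 (49.1% of all genes were above), and the median log2 fold change was 0.01. The genes with the smallest p of their lists there were *gcm*, *Galphai* (0.41, adjusted p = 0.199), the G protein subunit that signals with Moody and Loco, *Eaat2* (-0.17, adjusted p = 0.594), *uzip* (-0.26, adjusted p = 0.286), *sli* (0.17, adjusted p = 0.401) and the engulfment adaptor *Ced-6* (0.50, adjusted p = 0.223). None of these passed. In sggisoB 1 of the 50 was called, *Eaat1* itself, against 4.56% of all genes tested. The unadjusted p by edgeR was under 0.05 for 19, beside 3299 of all 10693 genes. Of the 50, 30 were above and 20 below 0 (49.1% of all genes were above), and the median was 0.05.

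The list of transport and neurotransmitter clearance, to which *Eaat1* belongs, had a median of -0.16 over 11 genes in sggisoB, and 3 of the 11 passed the adjusted p, all of them lower in the nulls, where 6.89% of all genes tested were lower at that adjusted p whatever their fold. Beside *Eaat1* these were the GABA transporter *Gat*, at 103.1 ± 18.1 CPM in the nulls and 146.2 ± 15.5 CPM in the controls (SD, n = 4, log2 fold change -0.50, adjusted p = 0.0385), and the astrocyte gene *alrm*, at 72.1 ± 8.73 and 101.5 ± 15.9 CPM (-0.49, adjusted p = 0.0384). Neither reached the fold of 0.7. *Eaat2*, the other member of the transporter family, was at 16.5 ± 3.42 and 24.2 ± 4.04 CPM (-0.55, adjusted p = 0.0729) and did not pass. Of the 11 genes 7 were below 0 and 4 above, with *fray* the highest (0.29, adjusted p = 0.0513), which did not pass. The choice to name *Gat*, *alrm*, *Eaat2* and *fray* here was made after their values were seen. With single samples left out, the highest adjusted p was 0.113 for *Gat*, 0.11 for *alrm* and 0.183 for *Eaat2*. In sggisoA *Gat* (-0.11, adjusted p = 0.733) and *alrm* (0.11, adjusted p = 0.654) did not pass.

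In sggisoB 4.17% of all genes tested passed the adjusted p and were higher, whatever their fold. Of 7 midline genes, to which *wrapper* is related by cell type, 3 did so: the EGFR ligand *vn* (0.54, adjusted p = 0.00575) and, chosen after their values were seen, *rho* (0.41, adjusted p = 0.0209) and *S* (0.50, adjusted p = 0.0111), both of which act in releasing EGFR ligands. The ligand gene *spi* of the same list, also named after its value was seen, was lower and did not pass (-0.33, adjusted p = 0.0633). With single samples left out the adjusted p of *rho* reached 0.0649, whereas that of *vn* and *S* stayed at or below 0.0291 and 0.0474. The median of this list was 0.26. In the list of fate genes *Dr* passed (0.47, adjusted p = 0.0354), with a list median of 0.15, and its adjusted p reached 0.102 with single samples left out. In the engulfment list the receptor gene *NimC4* passed (0.63, adjusted p = 0.00976). The barrier list had a median of 0.05 and 0 of 12 genes passed, with the smallest p at *Mdr65* (-0.44, adjusted p = 0.0681), and the adhesion and FGF list had a median of 0.03 and 0 of 9 passed, with the smallest p at *ths* (0.21, adjusted p = 0.0898). The EGFR genes are expressed in many tissues of the embryo, so that their levels are not those of midline glia alone.

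**Figure D4:**
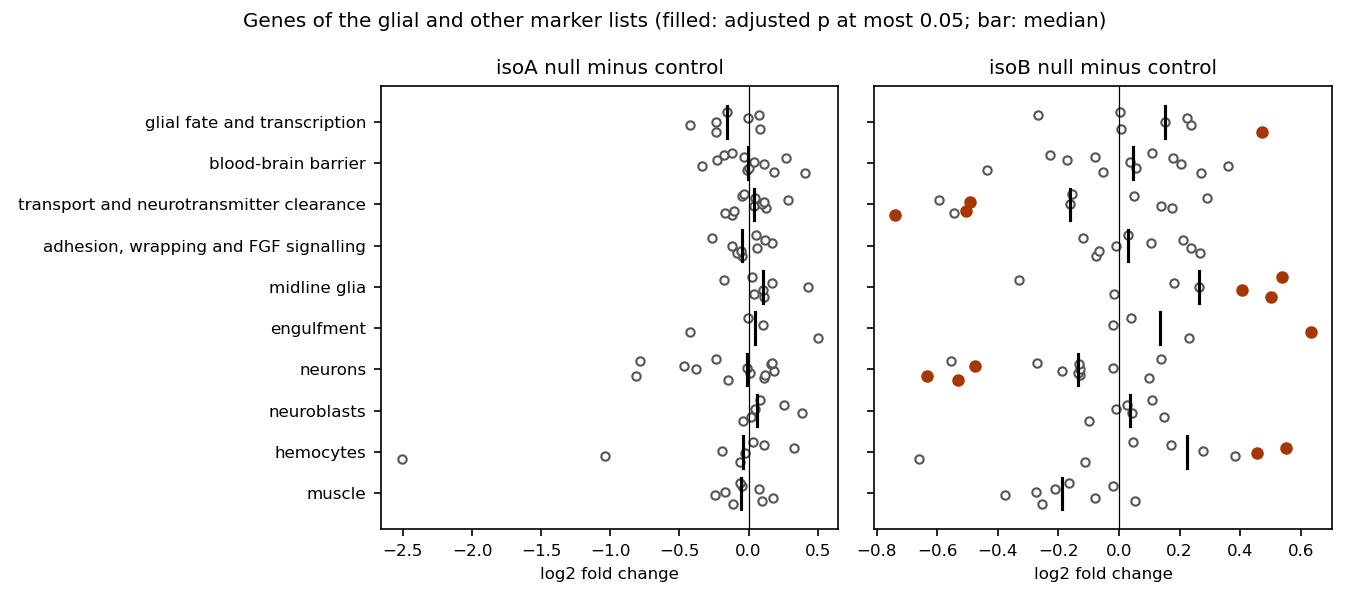
Log2 fold change, null over control, of each tested gene in the 6 glial lists and in lists for neurons, neuroblasts, hemocytes and muscle, in sggisoA (left) and sggisoB (right), on horizontal axes of different range. Filled points have an adjusted p of at most 0.05 and bars mark list medians. In sggisoB the filled points of the transport and neuron lists lie below 0 and those of the midline and hemocyte lists above 0, and in sggisoA no point is filled.

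In the interaction 1 of the 50 genes passed, against 2.54% of all genes tested. It was *NimC4*, with effects of -0.42 in sggisoA and 0.63 in sggisoB. The smallest p of the other lists belonged to *Dr* (0.73, adjusted p = 0.0742), *Tret1-1* (0.72, adjusted p = 0.0838), *alrm* (-0.58, adjusted p = 0.11), *bnl* (0.37, adjusted p = 0.226) and *vn* (0.54, adjusted p = 0.0901). Between the control groups, 44 of the 50 glial genes were above 0 in sggisoB controls, against 48.7% of all genes tested, with a median difference of 0.29. The midline regulator *sim* was the 1 gene of the 50 called (1.17, adjusted p = 0.00142), against 9.35% of all genes tested. The smallest p of the other lists belonged to *pnt* (0.32, adjusted p = 0.0445), *Gli* (0.58, adjusted p = 0.00432), *alrm* (0.41, adjusted p = 0.0408), *ths* (0.43, adjusted p = 0.00529) and *drpr* (0.34, adjusted p = 0.0462).

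Lists for other cell types were read beside the glial genes. In sggisoB 3 of 13 neuron genes passed the adjusted p, *fne*, *ChAT* and *Rdl*, all lower (6.89% of all genes tested), the median was -0.14, and their summed level was 1813 to 2229 CPM in the nulls and 2222 to 2565 CPM in the controls. The neuronal *elav* was at -0.02, and 0 of 13 neuron genes were without reads in any sample. In the same comparison 2 of 8 tested hemocyte genes passed, *srp* and *Pxn*, both higher (4.17% of all genes tested), while their summed level overlapped (2999 to 5262 and 3615 to 4216 CPM). For neuroblasts 0 of 6, for muscle 0 of 8 and for tendon cells 0 of 2 genes passed. The genes *fne*, *ChAT*, *Rdl*, *elav* and *Pxn* are named after their values were seen. In sggisoA 0 of the 37 genes of these lists passed by edgeR, where 0.991% of all genes tested passed. Their unadjusted p was under 0.05 for 6, beside 1966 of all 10397 genes. There 6 of the 13 neuron genes were above 0 and 7 below. Lower were *fne* (-0.47, adjusted p = 0.0861), *Rdl* (-0.81, adjusted p = 0.099) and *ChAT* (-0.15, adjusted p = 0.673). The interaction did not pass for *fne* (0.02, adjusted p = 0.952), *Rdl* (0.21, adjusted p = 0.671) or *ChAT* (-0.36, adjusted p = 0.39). Between the controls, beside *sim*, *para*, *ase*, *wor*, *insc* and *srp* were called higher and *NimC1* lower in sggisoB. Of 54 Cpr genes tested there, 6 were called higher and 6 lower, where 9.35% of all genes tested were called. The neuroblast list had a median difference of 0.68 between the controls, larger than the 0.36 of the 7 glial genes. The part of these cell types in the values of the glial genes was not tested.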

How the data were processed

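Per the labels and methods, the authors aligned single-end poly(A) reads with TopHat2 2.1.1 and Bowtie2 2.3.4.0 and counted them on exons of the FlyBase Release 6 annotation with Rsubread, whose defaults ignore strand and drop reads that overlap several genes. The deposited table holds these raw counts, not normalised, for 17493 genes. Further tables by the authors, made with edgeR 3.14.0 and limma 3.28.21, carry log2 CPM and the statistics of their own comparisons (log2 fold changes, p-values), none of which were used. Repeated raw counts in those tables matched the count table (0 of 147926 values differed).

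In R 4.3.3, low counts were removed with filterByExpr (minimum count 10, total 15), libraries were scaled by TMM and genes were tested with edgeR 4.0.16's two-sided quasi-likelihood test, each experiment on its own, with Benjamini-Hochberg adjustment over all genes kept. The interaction and the comparison of controls used 1 fit over the 14 samples in which each condition had its own mean. Log2 CPM for permutation tests used a prior count of 2. RPKM used exon lengths of an Ensembl annotation of Release 6 that is later than the authors' annotation and holds 17362 of the 17493 identifiers. Alternatives were DESeq2 1.42.0, limma-voom 3.58.1, other scalings, no filter, all samples in the fit, a replicate block and leaving out each sample. Between replicates, the chi-squared per gene was 12.4 to 79.1 over 18 pairs, so none was a repeated library. In simulated data with 200 changed genes, the test recovered 198 in both null comparisons, with 11 false calls in sggisoA and 2 in sggisoB. It recovered 192 in the interaction and 198 between controls. These recoveries were not broken down by size of change or by read count. Power for changes as small as those of the glial genes, or for weakly read genes, therefore cannot be read from these recoveries.

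The 7 genes and the lists were chosen with earlier results of these data known. Beside the members, the named genes are those called in a list, the gene of each glial list with the smallest p, and for each member the 3 genes with the highest r over the 14 samples. The Cpr list is an exception: its called genes are counted, and only those that passed the interaction are named. Others are said to be chosen after their values were seen. Of 88 list symbols, 85 matched as written and 3 after a change of letter case. A planned scan of promoters was not run and no sequence is shown, since no sequence table was used here. No per-sample column was left unused (0).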

Additional observations from a re-analysis of the deposited data

Results flagged for a closer look

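Among the lists set beside the glial genes, the Cpr list aside, 2 genes had effects that differed between the experiments. This was by the tested interaction in the fit of 14 samples (edgeR's quasi-likelihood test with Benjamini-Hochberg adjustment). *NimC4*, an engulfment receptor gene, had a difference of 1.08 (SE 0.21, adjusted p = 0.016), from -0.42 in sggisoA and 0.63 in sggisoB. Without sggisoA null replicate 2 or 3 its adjusted p was 0.0599 or 0.0659. *NimC1*, a hemocyte gene, had a difference of 1.45 (SE 0.30, adjusted p = 0.0239), from -1.04 in sggisoA (adjusted p = 0.0536) and 0.38 in sggisoB (adjusted p = 0.277), and its adjusted p was at most 0.0709 with single samples left out. Of the Cpr genes 3 of 54 tested passed the interaction, where 2.54% of all genes tested passed. They were *Cpr47Eb* (5.99, adjusted p = 0.0277), *Cpr5C* (-4.07, adjusted p = 0.0239) and *Cpr67B* (5.09, adjusted p = 0.0341). None of the 7 glial genes had such a difference. In the groups of 4 none had a sample far enough from the other 3 to stand out by Dixon's test, which flags about 1 group in 20 by chance. The largest Dixon ratios (gap over range) were 0.825 for *loco* and 0.784 for *repo*, both in the sggisoB nulls.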

How the results depend on the processing

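Of 782 values of single genes under the alternatives, 741 had the same direction and side of the thresholds. The number of genes called in sggisoA (101) was 368 with DESeq2, 295 with all 14 samples in the fit and 43 with a replicate block, and 6 to 183 with single samples left out. In sggisoB (488) it was 170 with the replicate block and 202 to 676 with single samples left out. The interaction count (280) was 852 with DESeq2 and 103 to 579 with single samples left out, and that between controls (1030) was 559 to 1359. In sggisoB the members called (1) and the glial list genes called (1) were both 0 under the replicate block, where *Eaat1* had -0.73 (adjusted p = 0.0608), and were 0 to 1 and 0 to 2 with single samples left out. Glial list genes passing the interaction (1) were 5 with DESeq2 and 0 to 2 with single samples left out, and those called between controls (1) were 2 without the filter and 1 to 2 with single samples left out. Reversed signs were found for uncalled genes only. In sggisoA *moody* was 0.0352 with library totals alone and *wrapper* -0.0122 with upper quartile scaling. With single samples left out the ranges that crossed 0 were -0.0805 to 0.1608 for *repo*, -0.2144 to 0.0818 for *moody* and -0.3919 to 0.0752 for *Eaat1* in sggisoA, -0.1458 to 0.0161 for *moody* and -0.0039 to 0.0812 for *wrapper* in sggisoB, -0.1507 to 0.1394 for *moody* and -0.0594 to 0.0492 for *wrapper* in the interaction, and -0.0184 to 0.4423 for *Eaat1* between controls. The cause of these shifts was not tested.

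Replicate numbers gave no clear pairing of the samples: null and control samples of one number had correlations of deviations from -0.202 to 0.193, and the best match was the same number for 0 of 3 sggisoA and 2 of 4 sggisoB nulls. With so few samples this check cannot exclude a pairing. Numbers of samples limit the sggisoA tests, where 3 against 3 cannot give an exact p below 0.1, and *gcm2* rested on as few as 40 reads.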
